A study of Mus musculus with 7 samples.

Results

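CD40 and 9 other genes of the tumour necrosis factor (TNF) superfamily are described here in mature and immature bone marrow-derived dendritic cells (BMDCs) of the mouse. The 10 genes were chosen by name and are 10 of the 28666 genes in the deposited table. They are 5 receptors, Cd40, Tnfrsf9, Tnfrsf4, Tnfrsf1a and Tnfrsf1b, and 5 ligands, Tnfsf4, Cd70, Ltb, Tnf and Tnfsf9. All 10 passed the filter on low counts.

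Bone marrow of female C57BL/6 mice aged 6 to 8 weeks was cultured with GM-CSF and IL-4 for 7 days to give BMDCs, which then shared a Transwell with cells of MC38, a colon carcinoma line of the mouse. DON, an antagonist of glutamine, was given for 24 h, and the cells were sorted by flow cytometry into an immature group of 3 libraries and a mature group of 4. The treatment is that of the study's text. Its legend for the sort names DMSO or DON at 5 µM and the sample labels give the maturation state alone, so the treatment of each library is not given in the sources used here. The markers of this sort are not given in the sources used here, and the antibodies the study lists for flow cytometry include CD80, CD86 and CD11c but none to the 10 proteins. The study makes a general statement that its experiments were repeated independently, but neither its text on the sort nor the labels tie these libraries to separate mice or cultures, so a p value measures the spread between these libraries, which may be technical.

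TNF superfamily ligands are mostly trimeric membrane proteins, some of them shed, that bind receptors on neighbouring cells. The receptors recruit TRAF adaptors or death domain proteins and switch on NF-kappa B, through a canonical route and through an alternative route that runs by NIK, p100 and RelB. In dendritic cells, CD40 receives help from T cells that carry CD40 ligand, and the ligands OX40L (Tnfsf4), 4-1BBL (Tnfsf9) and CD70 pass costimulation to T cells that carry OX40, 4-1BB and CD27.

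Total counts were 54846746 to 67973086 per library. Mature replicate 3 stood apart from the rest of its group: the median chi-square per gene was 4.42 to 6.39 between it and the other mature libraries, 1.06 to 1.32 among those, 0.957 to 1.13 among the immature libraries, and is 0.455 under sampling noise. Every pair was above 0.455, but that value takes each count as a separate fragment. A fragment may stand for several counts in this table, so agreement within sampling noise could not be judged. Each library was counted once. In mature replicate 3 the 4359 genes with the shortest summed exons had a median log2 difference of 0.42 from the mean of the other mature libraries, and the 4359 with the longest had one of -0.30. Heart muscle genes, a list of 5, summed to 1.28 to 1.74 CPM (counts adjusted for library size) in immature libraries. The sum was 2.47 in the lowest mature library, replicate 1, and 615 in the highest. All 5 genes were low in mature replicate 1 and high in mature replicates 2, 3 and 4. Myl2, for one, was at 0.303, 56.7, 65.2 and 59.3 CPM in mature replicates 1, 2, 3 and 4. By these genes mature replicate 1 was the mature library nearest to the immature ones. The source of the heart muscle RNA and its part in the results below were not tested.

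The labels' maturation states were checked against marker genes. All 7 mature dendritic cell markers, which the sort may have used in part, were higher in the mature group, with a summed level of 1326 to 1402 CPM in immature and 12644 to 15662 CPM in mature libraries. The 10 dendritic cell markers summed to 10597 to 11329 and 12306 to 17517 CPM, and 4 of them were higher. Cd74 alone was at 6419 to 6846 CPM in immature and 7405 to 11458 CPM in mature libraries. While 9 of the 10 had a log2 fold change above 0, H2-Ab1 was at 0.06, and Itgax, the CD11c gene, was at -0.41. All 8 macrophage markers were lower in the mature group, from 1979 to 2069 down to 346 to 396 CPM. In sorted bulk cells, fewer cells of a type and less RNA per cell cannot be told apart, and the part of these markers in the results below was not tested.

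Of the 10 genes, 6 were higher and 1 was lower in mature BMDCs in edgeR's quasi-likelihood test, by the study's criteria (log2 fold change of 1 or more in size, adjusted p below 0.05). Among the 17461 genes tested, 23.1% passed in either direction, 13.2% as higher and 9.95% as lower. For 9 of the 10 genes the CPM ranges of the groups were apart, against 52.1% of all genes tested, and 9 had an adjusted p under 0.05 whatever the fold, against 46.1%. That number ran from 7 to 10 over the 18 alternatives. The median log2 fold change was 2.31 over the 10 genes and 0.05 over all genes tested. As the genes were picked with earlier results of these data known, these counts describe them and test nothing. By role, 3 of 5 receptors and 3 of 5 ligands were higher, 1 receptor was lower, and Tnfrsf1b, Tnf and Tnfsf9 did not pass.

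**Figure D1:**
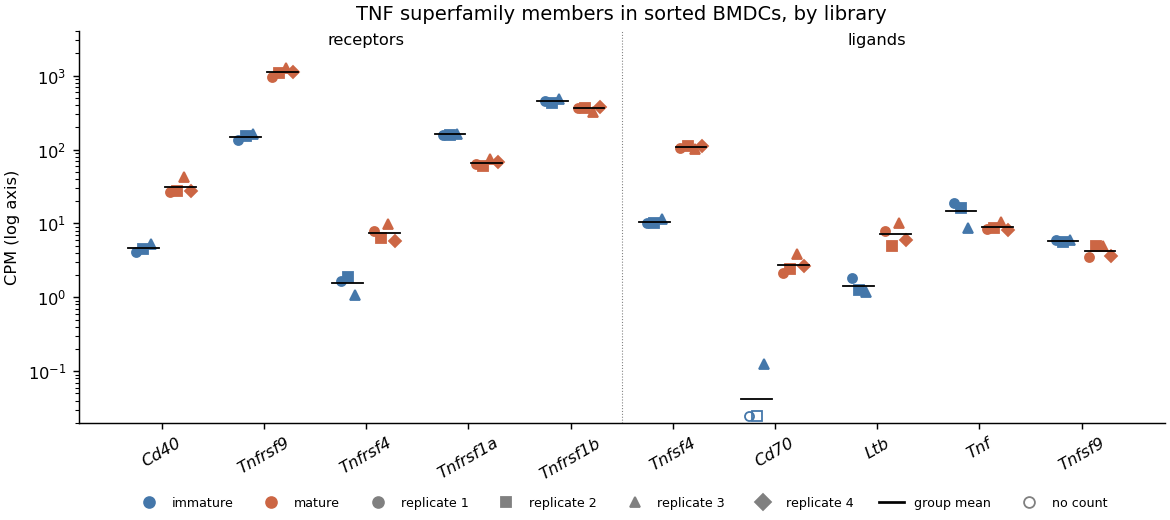
CPM (log axis) of the 10 genes in each library, with a symbol per replicate and a black line at the group mean; open symbols at the bottom are libraries with no count. The 7 genes past the criteria show groups that stand clear of each other, while immature replicate 3 of Tnf, at 8.65 CPM, sits among the mature libraries.

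Cd40 encodes the receptor through which helper T cells license dendritic cells. Its level was 4.07, 4.51 and 5.28 CPM in immature replicates 1, 2 and 3, and 26.4, 27.6, 42.0 and 27.5 CPM in mature replicates 1, 2, 3 and 4. Every mature library was above every immature one, and mature replicate 3 was well above the other mature libraries, which were close together. This gave a log2 fold change of 2.74 (SE 0.20, 95% confidence interval 2.27 to 3.20, adjusted p = 9.96e-06), a 6.67-fold higher level. Without mature replicate 3 it was 2.58. The gene lies at chr2:165055627-165072948 on the plus strand.

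Tnfrsf9, which encodes 4-1BB (CD137), a costimulatory receptor best known on activated T cells, had the highest level of the 10 genes in mature cells. It was measured at 135, 151 and 163 CPM in the immature libraries and at 953, 1083, 1262 and 1126 CPM in the mature ones. The lowest mature library was far above the highest immature library. Its log2 fold change was 2.88 (SE 0.13, interval 2.60 to 3.17, adjusted p = 6.15e-07), or 7.38-fold. Tnfrsf9 (chr4:150914562-150946102, plus strand) overlaps Camta1 on the minus strand, and the sources do not say whether counting used strand. Camta1 was at 5.56 to 8.32 CPM in every library, a small fraction of the Tnfrsf9 level.

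RefSeq gave 2 start sites for Tnfrsf9 in GRCm38.p6, and the 100 bases before the second are shown because they hold both motifs that were searched for. That start site, at position 150927999, lies inside the deposited gene span. Capitals mark the NF-kappa B like motif GGNNTTTCC, found as GGGATTTCC starting 42 bases before the start site, and the AP-1 motif TGANTCA, found as TGAGTCA starting 15 bases before it.
Tnfrsf9, chr4:150927899-150927998, plus strand: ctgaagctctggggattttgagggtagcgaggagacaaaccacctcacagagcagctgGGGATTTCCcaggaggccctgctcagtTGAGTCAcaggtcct
Both strands were searched from 250 bases before to 50 after each start site. The kappa B like letters occurred in 5.82% and the AP-1 letters, which read the same on both strands, in 7.81% of 32851 such windows. The window of the first Tnfrsf9 start site held neither. Windows were at hand for 6 of the 10 genes, Tnfrsf9, Tnfrsf4, Tnfrsf1a, Tnfrsf1b, Tnf and Ltb, and 2 of these, Tnfrsf9 and Ltb, held the kappa B like letters. A match is a run of letters and says nothing of binding.

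Tnfrsf4, which encodes OX40, was rare in both groups. The immature libraries gave 1.67, 1.91 and 1.08 CPM and the mature ones 7.81, 6.30, 9.83 and 5.85 CPM. The groups did not overlap, and mature replicate 3 was again the highest. The log2 fold change was 2.26 (SE 0.27, interval 1.64 to 2.89, adjusted p = 1.91e-04). It was 2.12 without mature replicate 3 and 1.99 without mature replicates 1 and 3. The gene (chr4:156013843-156016612, plus strand) lies 9551 bases from Tnfrsf18, the gene of the related receptor GITR, which rose as well (log2 fold change 2.66, adjusted p = 1.23e-05).

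Tnfrsf1a encodes TNFR1, the broadly expressed TNF receptor with a death domain, and was the one member past the criteria that fell. Immature libraries had 159, 159 and 165 CPM, and mature libraries 63.4, 59.6, 73.6 and 67.4 CPM. The immature values were close together and all above the mature ones. Tnfrsf1a had a log2 fold change of -1.28 (SE 0.087, interval -1.48 to -1.08, adjusted p = 6.13e-06), so the immature level was 2.43 times the mature one. The gene is at chr6:125349362-125361874 on the plus strand. Beside this fall, all 8 macrophage markers were lower too, as given above, and their part in it was not tested.

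Tnfrsf1b encodes TNFR2, the TNF receptor without a death domain. It was at 459, 424 and 485 CPM in immature and at 368, 366, 327 and 380 CPM in mature libraries. The groups did not overlap, but the log2 fold change, -0.34 (SE 0.085, interval -0.53 to -0.15), was under the fold criterion at an adjusted p of 0.0108. The adjusted p was above 0.05 in 6 of 18 alternatives, among them library totals alone (0.0850), the replicate block (0.0550) and the fit without immature replicate 3 (0.0582), and ran from 0.00232 to 0.127 over all of them. The ratio of both TNF receptor genes is compared further on.

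Tnfsf4, the gene of OX40 ligand, had the smallest p of the 10 genes and ranked 18 among all genes tested. Its level was 10, 10.05 and 11.45 CPM in immature and 106, 113, 102 and 111 CPM in mature libraries. Within each group the libraries were close together, and mature replicate 3 was the lowest of its group rather than the highest. The difference was a log2 fold change of 3.37 (SE 0.096, interval 3.15 to 3.58, adjusted p = 1.59e-07), a 10.3-fold higher level. The gene lies at chr1:161395409-161418410 on the plus strand, 76244 bases from Tnfsf18, the gene of GITR ligand, which was too low to be tested.

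Cd70, the gene of the ligand for CD27, was close to absent from immature cells. The deposited counts were 0, 0 and 8 in immature libraries and 139, 160, 207 and 165 in mature libraries, or 2.11, 2.42, 3.91 and 2.64 CPM in the latter. Low counts in the table pile up on multiples of 4 (31.471% of values from 1 to 20, against 25% if even), so the 8 counts may stand for 2 fragments. Taken in steps of 4, the pooled ratio of mature to immature was 65.4 with an exact 95% interval of 17.8 to 545, which covers counting error only. The log2 fold change fitted by edgeR was 5.92 (SE 0.88, interval 3.92 to 7.92, adjusted p = 6.23e-04). Without immature replicate 3 the immature group had no count at all and the fitted value was 10.38, which depends on the prior count and is no bound. In the other fits that left out a library it was at least 5.37, and with limma on log2(FPKM + 1), which compresses low values, it was 1.96.

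Ltb, the gene of lymphotoxin beta, which forms a membrane complex with lymphotoxin alpha, was low but higher in mature cells. It was at 1.81, 1.24 and 1.19 CPM in immature and 7.88, 4.99, 10.1 and 5.89 CPM in mature libraries. The groups stood apart, although the mature values were spread out, with replicate 3 on top. Ltb had a log2 fold change of 2.35 (SE 0.30, interval 1.67 to 3.03, adjusted p = 2.59e-04), and 1.96 without mature replicates 1 and 3. The 100 bases before the start site of Ltb are shown, with the kappa B like match on the minus strand in capitals (GGAAAGTCC, starting 87 bases before the start site), next to those of its neighbour Tnf, whose window held neither motif; both are from RefSeq, GRCm38.p6.
Ltb, chr17:35194407-35194506, plus strand: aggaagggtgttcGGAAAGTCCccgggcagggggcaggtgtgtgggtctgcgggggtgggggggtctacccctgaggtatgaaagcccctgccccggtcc
Tnf, chr17:35202008-35202107, minus strand: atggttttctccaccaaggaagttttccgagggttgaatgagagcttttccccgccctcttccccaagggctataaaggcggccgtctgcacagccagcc

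Tnf encodes the inflammatory cytokine for which the family is named. It was at 19.2, 16.4 and 8.65 CPM in immature and at 8.47, 8.59, 10.3 and 8.08 CPM in mature libraries. Immature replicates 1 and 2 were above all mature libraries and immature replicate 3 was within their range, so the groups overlapped. The log2 fold change was -0.73 (SE 0.25, interval -1.29 to -0.17, adjusted p = 0.0380), under the fold criterion. Without immature replicate 3 it was -1.01 and passed both criteria (adjusted p = 0.00180), and over all 18 alternatives the adjusted p ran from 0.00180 to 0.176 and was above 0.05 in 12.

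Tnfsf9, the gene of 4-1BB ligand, was the one ligand with a value below 0 other than Tnf. Immature libraries had 5.89, 5.57 and 6.00 CPM and mature libraries 3.47, 5.02, 4.90 and 3.61 CPM. The groups did not overlap, with mature replicates 2 and 3 close to the immature values. The log2 fold change was -0.45 (SE 0.18, interval -0.87 to -0.04) with an adjusted p of 0.0729, so it passed neither criterion. Without mature replicate 3 the adjusted p was 0.0382, and over all alternatives it was 0.0382 to 0.211. Tnfsf9 overlaps the minus strand gene Gm11110, which was at 3.99 to 4.80 CPM in immature and 4.20 to 6.03 CPM in mature libraries, levels like those of Tnfsf9 itself, so its counts are uncertain.

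Mature replicate 3, the library that stood apart, was the highest mature library for 7 of the 10 genes. On the log2 scale its CPM was 0.72 above the mean of the other mature libraries for Ltb, 0.71 for Cd70, 0.63 for Cd40 and 0.57 for Tnfrsf4, and below that mean for Tnfsf4 (-0.11) and Tnfrsf1b (-0.18). The part of this library's shift in those 4 values was not tested, but all 7 calls held without mature replicate 3 and without mature replicates 1 and 3. The fit without mature replicates 1 and 3 kept mature replicates 2 and 4, both of them high in heart muscle genes.

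Levels were compared between genes as FPKM, the deposited values that scale fragments by transcript length and library total. In immature cells Tnfrsf1b led with 105 ± 4.78 FPKM (SD, n = 3), followed by Tnfrsf1a at 54.5 ± 0.246 and Tnfrsf9 at 48.3 ± 3.92. The ranges of these genes did not overlap. Tnf (7.94 ± 3.05) overlapped Tnfsf4 (5.00 ± 0.274), Tnfsf9 stood at 3.96 ± 0.0854, and Cd40 (1.18 ± 0.135), Tnfrsf4 (0.997 ± 0.294) and Ltb (0.813 ± 0.206) could not be ordered beyond their spread. Cd70 was last.

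In mature cells Tnfrsf9 led with 383 ± 31.4 FPKM (SD, n = 4), ahead of Tnfrsf1b at 89.5 ± 9.29, Tnfsf4 at 55.7 ± 4.94, Tnfrsf1a at 22.65 to 25.09 and Cd40 at 8.50 ± 1.60, each with a range of its own. From Tnfrsf4 (5.11 ± 1.01) through Tnf (5.10 ± 0.364), Ltb (4.45 ± 1.22), Tnfsf9 (3.10 ± 0.590) and Cd70 (3.07 ± 0.727), neighbours in the order overlapped. The sum over the 10 genes was 228 ± 3.08 FPKM in immature and 582 ± 29.4 FPKM in mature cells. Tnfrsf9 made up 21.2% of that sum (19.3% to 22.2% by library) in immature and 65.8% (62.8% to 68.8%) in mature cells, and Tnfrsf1b 46.1% and 15.4%. Summed over all genes, mature replicate 3 had an FPKM of 381707 against 327714 to 337706 elsewhere, so levels in that library are on a slightly different scale.

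**Figure D2:**
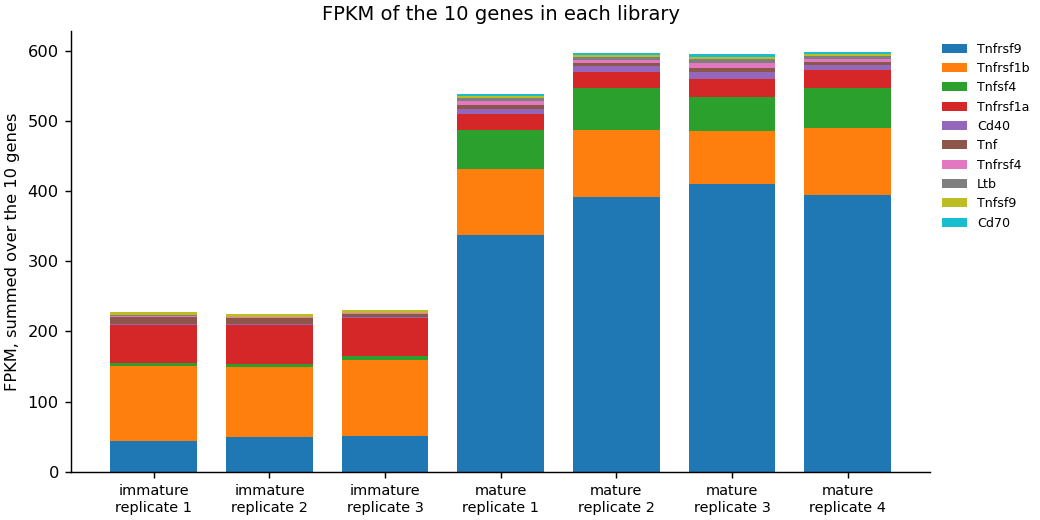
FPKM of the 10 genes stacked in each library (y axis from 0). Tnfrsf1b is the widest band in the 3 immature libraries and Tnfrsf9 in the 4 mature libraries, where the sum is 582 FPKM on average against 228.

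Ratios between genes of 1 library do not depend on how libraries are scaled. A shift that depends on gene length, as in mature replicate 3, does not cancel in them when the genes differ in length. Its part in the ratios was not tested. The 4 ratios were compared as log2(FPKM + 0.01) differences by a two-sided exact permutation test over the 35 assignments of the libraries. The smallest p this design gave was 0.0571, or 0.0762 after Benjamini-Hochberg adjustment over the 4 ratios, so no ratio could pass 0.05. For 4-1BB ligand and its receptor, the log2 ratio of Tnfsf9 to Tnfrsf9 was -3.44, -3.68 and -3.69 in immature and -7.02, -6.67, -6.93 and -7.21 in mature libraries. The receptor's FPKM was thus 12.1 times the ligand's in immature and 124 times in mature cells (difference -3.36, exact p = 0.0571).

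For OX40 ligand and its receptor the ligand gene had the higher FPKM in every library. The log2 ratio of Tnfsf4 to Tnfrsf4 was 2.14, 1.97 and 2.97 in immature and 3.34, 3.74, 2.95 and 3.82 in mature libraries. These groups overlapped (difference 1.10, exact p = 0.114), with the third replicate of each group nearest to the other group. The opposite rank of ligand and receptor in the OX40 and 4-1BB pairs held in all 7 libraries.

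The log2 ratio of Tnfrsf1b to Tnfrsf1a was 0.97, 0.86 and 1.00 in immature and 1.98, 2.06, 1.59 and 1.94 in mature libraries. The FPKM of Tnfrsf1b was therefore 1.92 times that of Tnfrsf1a in immature and 3.71 times in mature cells (difference 0.95, exact p = 0.0571). The log2 ratio of Tnf to Ltb, neighbours on chromosome 17, was 3.29, 3.62 and 2.73 in immature and -0.01, 0.68, -0.08 and 0.35 in mature libraries. Tnf went from 9.27 times Ltb to 1.18 times (difference -2.98, exact p = 0.0571).

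**Figure D3:**
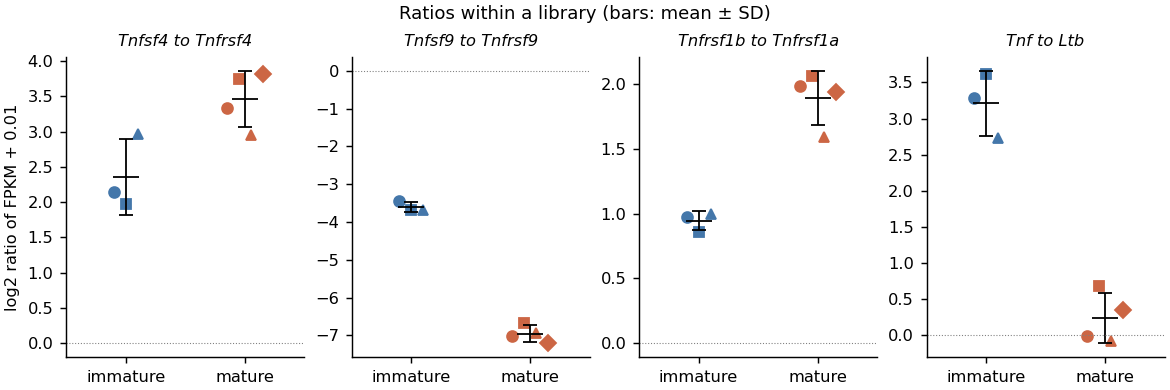
Log2 ratios of FPKM + 0.01 between gene pairs in each library, with mean ± SD per group (3 immature, 4 mature) and a dotted line where the genes are equal; each panel has its own y axis. The groups are apart in every panel but that of Tnfsf4 to Tnfrsf4, where immature replicate 3 (2.97) lies above mature replicate 3 (2.95).

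Several of the 10 genes lie beside other genes of the family. Lta, Tnf and Ltb lie in a row on chromosome 17 with gaps of 1157 and 3075 bases, and their log2 fold changes were 3.72, -0.73 and 2.35. Tnfsf9, Cd70 and Tnfsf14 form another row on that chromosome with gaps of 38239 and 39714 bases, and theirs were -0.45, 5.92 and -2.71. Tnfrsf1a lies 35476 bases from Ltbr, the lymphotoxin beta receptor gene, whose log2 fold change was -0.74 (adjusted p = 6.58e-04), under the fold criterion.

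Of 13 other ligand genes of the family listed, 9 were tested, 2 were higher, 2 were lower and the median log2 fold change was -0.05. Thus 44.4% of those tested passed the criteria in either direction, against 23.1% of all genes tested. Lta, the gene of lymphotoxin alpha and partner of Ltb, rose from 0.0620 to 0.102 CPM in immature to 0.667 to 1.59 CPM in mature libraries (log2 fold change 3.72, adjusted p = 3.75e-04), still a low level. Tnfsf15, the gene of TL1A, rose from 1.49 to 2.11 CPM to 10.2 to 20.2 CPM (3.04, adjusted p = 3.37e-05). Tnfsf14 (LIGHT), at 3.56 to 5.55 CPM in immature and 0.530 to 0.784 CPM in mature cells, fell (-2.71, adjusted p = 3.47e-05), as did Tnfsf13 (APRIL; -1.48, adjusted p = 6.12e-04). Fasl, Cd40lg, Tnfsf18 and Eda were too low to test. Cd40lg, the gene of the CD40 ligand, had 4 counts in 1 immature and in 1 mature library and none elsewhere, and Cd27, the gene of the CD70 receptor, was at 0.0946 to 0.393 CPM.

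Among 23 other receptor genes listed, 19 were tested, 4 were higher and 5 lower, with a median log2 fold change of 0.00. The share past the criteria was 47.4% of those tested, against 23.1% of all genes tested. The receptor genes that were higher were Tnfrsf18 (GITR; 2.66, adjusted p = 1.23e-05), Tnfrsf11a (RANK, a receptor by which T cells prolong dendritic cell survival; 1.99, adjusted p = 7.30e-06), Eda2r (1.77, adjusted p = 6.28e-04) and Fas (1.45, adjusted p = 2.95e-05). Tnfrsf21, the gene of death receptor 6, fell most (115 to 142 CPM in immature, 15.3 to 19.0 CPM in mature; log2 fold change -2.88, adjusted p = 4.07e-07). Tnfrsf14, the gene of HVEM and so a receptor for LIGHT, fell with its ligand (-1.24, adjusted p = 0.0185). It was at 13.6 to 22.4 CPM in immature libraries and at 9.90, 9.84, 3.27 and 8.52 CPM in mature replicates 1, 2, 3 and 4. Its lowest value was thus in mature replicate 3, the library that stood apart. Without that library, 7 of the 9 calls among these other receptor genes were kept. Tnfrsf26 (-1.80), Tnfrsf23 (-1.38) and Tnfrsf22 (-1.11) also fell; they are closely related neighbours on chromosome 7, and counting could have split reads among them.

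**Figure D4:**
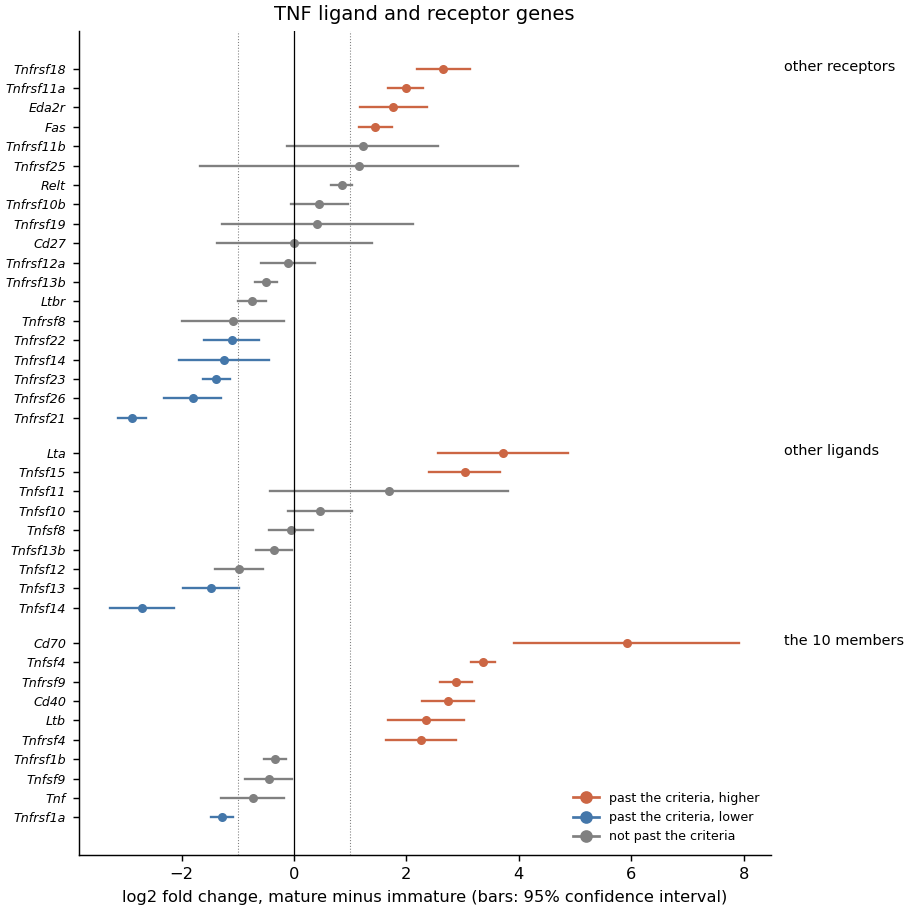
Log2 fold changes (mature minus immature) with 95% confidence intervals for the 10 genes, 9 other ligand genes and 19 other receptor genes tested; dotted lines mark an absolute value of 1. Of the 10 genes, 6 lie to the right past the criteria, while the other receptors spread to both sides, 4 higher and 5 lower.

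Downstream of the receptors, 13 of 35 adaptor and signalling genes (37.1%) were higher and 0 were lower by the criteria in edgeR. Among all genes tested, 13.2% were higher and 9.95% lower. DESeq2 and limma also called 0 of the 35 genes lower, while 4 of them had a value below 0 with an unadjusted p under 0.05 in edgeR. The median log2 fold change of the 35 genes was 0.52, against 0.05 for all genes. Traf1, the gene of an adaptor bound by 4-1BB, rose from 60.5 to 73.2 CPM to 483 to 602 CPM (log2 fold change 2.97, adjusted p = 4.94e-07). Of genes used in the alternative NF-kappa B route, Relb (2.63), Nfkb2 (p100; 2.34) and Map3k14 (NIK; 2.17) rose, while Chuk (IKK alpha; -0.28, adjusted p = 0.113) and Traf3 (0.51, adjusted p = 0.00983) did not pass both criteria. Of genes used in the canonical route, Rel (2.17), Nfkb1 (p105; 1.65) and the inhibitor gene Nfkbia (1.19) rose, and Rela (0.56, adjusted p = 0.00192) was under the fold criterion. Also of the canonical route, Ikbkb (0.26, adjusted p = 0.110), Ikbkg (-0.19, adjusted p = 0.168) and Map3k7 (-0.13, adjusted p = 0.355) passed neither criterion. Birc2 (cIAP1), which acts in both routes, rose by 2.01. Adam17, which encodes the sheddase of TNF and its receptors, and Ripk1, a death domain kinase bound by TNFR1, both had a value of -0.64 (adjusted p = 0.00113 and 7.02e-04), also under the fold criterion. Relb is in the mature marker list as well, and these genes were listed with earlier results known.

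**Figure D5:**
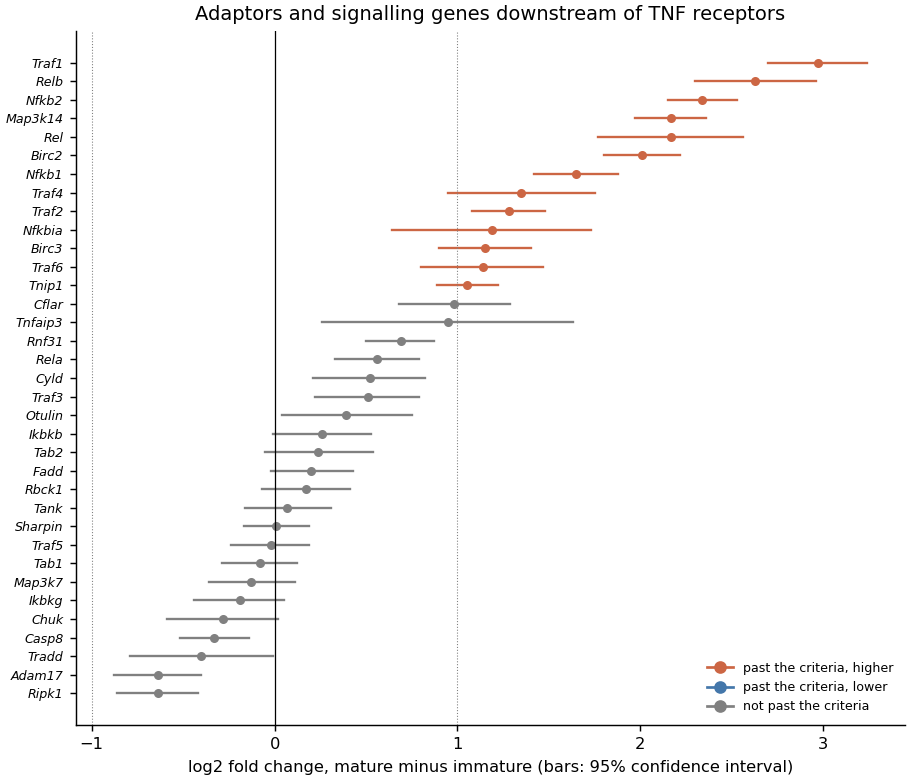
Log2 fold changes with 95% confidence intervals of 35 adaptor and signalling genes, in order of size. The 13 genes past the criteria are all on the positive side, led by Traf1 at 2.97, and none of the 22 others lies below -0.64.

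T cells also use Cd70, Ltb, Tnfrsf4 and Tnfrsf9, so T cell genes were looked at beside them. Of 8 T cell markers, 1 (Il2ra) was higher, 1 (Cd28) was lower and 6 did not pass, while the list's summed level went from 20.2 to 25.6 CPM to 79.8 to 95.9 CPM. Il2ra, the CD25 gene, is also made by activated dendritic cells. The defining genes Cd3d, Cd3e and Cd3g were at 0.697 CPM or less in every library. The summed markers of B cells went from 0.217 to 0.375 CPM to 0.712 to 1.36 CPM, and the 2 that could be tested, Cd79a and Cd79b, had an unadjusted p of 0.0745 and 0.101 in edgeR's quasi-likelihood test. The NK cell list went from 2.53 to 2.78 CPM to 19.3 to 22.8 CPM, with Klrk1 the one gene past the criteria, and the mast cell and basophil list from 5.22 to 7.14 CPM to 30.9 to 42.3 CPM, with Kit the one gene past them. The neutrophil list went from 1.36 to 3.02 CPM to 0.944 to 2.17 CPM. The list of epithelial or MC38 cells went from 69.9 to 77.3 CPM to 59.2 to 69.5 CPM, with Cdh1 alone at 47.3 to 57.8 CPM. Epcam was the one gene of that list past the criteria (log2 fold change 2.24, adjusted p = 0.00436 in edgeR). Krt8 was at 6.27, 10.7 and 11.0 CPM in immature and at 10.7, 6.26, 4.16 and 3.93 CPM in mature libraries. The part of these lists in the results was not tested.

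Finally, the genes whose profile over the 7 libraries was nearest to each member past the criteria were sought, by the root mean square difference of centred log2 CPM. As each of these members differs between the groups, the measure largely picks genes of like log2 fold change. Naaa, for one, was at -1.28, as was Tnfrsf1a, and Cx3cl1 was at 3.46 beside Tnfsf4 at 3.37. Tnfrsf1a had the nearest, Naaa (0.0302) and Rnase4 (0.0310). Cx3cl1, the fractalkine gene, was nearest to Tnfsf4 (0.0664), followed by Exd1. Serpina3g (0.0999) and Traf1 (0.111) were nearest to Tnfrsf9. Azin2 (0.0951), Rogdi (0.0989) and Cmc2 (0.108) were nearest to Cd40. In each of those 3, as in Cd40, mature replicate 3 was the highest library. Nearest genes were farther off for Tnfrsf4 (Radil, 0.161), Ltb (Gm15156, 0.182) and Cd70 (Hbb-bt, 0.560), which had low counts.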

How the data were processed

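RNA of 3 immature and 4 mature BMDC libraries was analysed, with groups taken from the sample labels. The deposited table gives counts per gene as whole numbers that the authors did not normalize, and beside them FPKM values. Per the labels, cutadapt 1.9, HISAT2 2.2.1, StringTie 2.1.6 and build mm9 were used. Gene starts in the table equal those of GENCODE M21 (GRCm38) for 99.472% of 28588 matched genes, so coordinates are given as GRCm38. The strand setting of counting is not given in the sources used here.

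Counts were fitted in R 4.3.3 with edgeR 4.0.16 (filterByExpr, TMM, quasi-likelihood test, all 7 libraries, Benjamini-Hochberg adjustment over all genes tested). The standard error is the absolute log2 fold change divided by the square root of F. CPM uses TMM-scaled totals. Ratios, exact tests and figures used Python 3.11.15, scipy 1.17.1 and matplotlib 3.10.9. Members, lists and tests were chosen with earlier results of these data known. The text names all members, of each other list up to 6 genes past the criteria per direction, and genes among the 3 nearest profiles of each member past the criteria, 1 of which is not reported here; other genes, such as Rela, Nfkb1, Nfkbia, Chuk, Traf3, Adam17, Ripk1, Ltbr, Cd40lg and Cd27, were named after their values were seen. Alternatives were DESeq2 1.42.0, upper-quartile scaling, library totals alone, other filters, limma 3.58.1 on log2 FPKM with pseudocounts of 1 and 0.1, the replicate number as a block, libraries left out and, added after seeing the data, counts divided by 4. The fits were tested on simulated counts.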

Additional observations from a re-analysis of the deposited data

Results flagged for a closer look

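The CPM of Cd40 in mature replicate 3, 42.0, was set apart from the other mature libraries at 26.4 to 27.6: the gap to the nearest of them was 0.928 of the group's range, above Dixon's 95% critical value for 4 samples. The test was made on 14 values, and 0.70 would be set apart by chance. The log2 fold change of Cd40 was 2.58 without this library.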

How the results depend on the processing

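All 7 members past the criteria kept their call and direction in each of the 18 alternatives, and no member or ratio changed sign. Without immature replicate 3, Tnf passed the criteria as well (log2 fold change -1.01), which made 8; with the adjusted p alone 9 passed. Leaving out a library in turn gave 7 to 8 members, 4 to 5 other ligands, 8 to 10 other receptors and 13 to 14 signalling genes, and log2 fold changes of -1.01 to -0.50 for Tnf and -3.22 to -2.78 for the ratio of Tnf to Ltb. That ratio was -2.05 with log2(FPKM + 1), whose larger pseudocount shrinks low values. Library totals alone and upper-quartile scaling moved the median of all genes by 0.106 and 0.111, and all 7 calls held. Among all genes, 4037 passed, but 2665 with the FPKM filter, 2561 with limma on log2(FPKM + 0.1) and 1768 on log2(FPKM + 1), which tested 11758 genes in place of 17461. The deviations of same-numbered libraries from their group means, over all genes tested, had correlations of -0.00114 to 0.0285. Those of differently numbered libraries had correlations of -0.0484 to 0.0360. These values show no pairing by number, but they do not settle whether mice or cultures were shared. In edgeR with the replicate block 7 members and 3616 genes passed, and Tnf had an adjusted p of 0.150. Depth limits Cd70 most, with 8 counts in the immature group.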

Other observations

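In the immature group, Tnfaip3 and Nfkbia, which are among the early NF-kappa B target genes, ordered the libraries as Tnf did. Tnf was at 19.2, 16.4 and 8.65 CPM in replicates 1, 2 and 3, Tnfaip3 (A20) at 147, 80.5 and 51.5 CPM, and Nfkbia at 237, 167 and 133 CPM. In the mature libraries Tnfaip3 was at 163 to 193 CPM and Nfkbia at 347 to 561 CPM, above the 3 immature values of each gene, whereas Tnf was at 8.08 to 10.3 CPM. Other signalling genes were mixed in this. In immature replicates 1, 2 and 3, Rel was at 119, 114 and 97.6 CPM, the same order. Nfkb2 (97.5, 104 and 110 CPM) and Traf1 (60.5, 67.7 and 73.2 CPM) had the reverse order. The share of all genes with either order was not counted. All these genes were chosen after their values were seen, and the source of the spread was not tested.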
